A study of Arabidopsis thaliana with 74 samples.

Results

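The comparison described here set each of 36 epiHybrids against the epiRIL that fathered it. It was restricted to genes outside an interval of chromosome 5 that holds the maternal Landsberg (Ler) segment and its linked flank. This interval is called the excluded segment below, although the Ler DNA that the study reported takes up only a part of it. Genes were taken as outside where their locus number did not lie between AT5G17000 and AT5G36500, which left 31441 of the 32833 genes listed. Of these, 18475 had at least 1 CPM (a count per 1 M counts in the library) in at least 2 libraries and were tested, out of 19383 genes tested in the whole series. An epiRIL and the epiHybrid it fathered share a line number and are called a family.

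An epiRIL (epigenetic recombinant inbred line) is a Columbia (Col-0) line that descends from a cross of wild type with a ddm1-2 mutant and has since lost the mutation, but has kept stretches of the hypomethylated DNA of that ancestor. DDM1 is a chromatin remodeller that keeps DNA methylation on transposons and repeats, mainly around the centromeres, and stretches that lose methylation in its absence can stay unmethylated for many generations. An F1 plant receives 1 chromosome set from each parent, so a locus that is active in the father and silent in the mother enters the hybrid as an active and a silent copy. The reverse, a locus active in the mother and silent in the father, enters the hybrid in the same way. Loci of both kinds, and any genes that respond to the state of the whole plant, are among what a comparison of F1 and father can show.

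The series held 74 RNA-seq libraries of Arabidopsis thaliana rosettes harvested 27 days after sowing: 36 epiHybrids, 36 epiRILs and 2 msCol lines, named msCol12 and msCol16. epiHybrids were the F1 of a female msCol and a male epiRIL. msCol is Col-0 made male sterile by the recessive ms1 mutation, introgressed with a segment of Ler DNA around MS1, and it segregates for sterility, so both msCol libraries came from siblings and not from a fixed line. Each library was made from rosettes pooled over replicate cultivations, hence the 36 families were the replicates and the spread between plants of 1 line was not measured.

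Library totals were 38.4 to 41.3 M counts in epiHybrids, 38.1 to 42.2 M in epiRILs and 38.7 to 38.8 M in msCol, so 1 count was worth about 0.0245 CPM in the median library. The epiHybrids of families 340, 368 and 310 stood apart from the other libraries in an earlier analysis of these data. The normalisation factor of the first was 0.756, the lowest of the series, against 0.914 to 1.09 in epiRILs, and those of the other 2 were 0.963 and 0.926. Without families 340 and 368, 106 genes outside the segment were called, of which 84 were among the 112 calls given below. The tissue label was checked on marker lists. All 40 nuclear photosystem and Rubisco genes listed were tested, whereas 1 of 9 root markers and 0 of 9 seed markers reached the expression filter. Of the floral organ markers 8 of 8 were tested, and their summed level was 12.8 to 36.6 CPM in epiHybrids and 12.1 to 38.2 CPM in epiRILs. The 9 senescing leaf markers summed to 234 to 724 CPM in epiHybrids and 245 to 638 CPM in epiRILs, and none of the 5 marker lists held a gene called by edgeR, with 0 markers at an unadjusted p under 0.05.

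Labels were checked on the excluded segment itself, where an epiHybrid carries 1 maternal copy of the Ler segment and an epiRIL carries none. For 63 segment genes that differed between epiRILs and msCol, each library received a position between the epiRIL mean (0) and the msCol mean (1). In 34 families the library labelled epiHybrid scored 0.243 to 0.543 and the library labelled epiRIL scored -0.14 to 0.0835, with no overlap between these groups. In families 12 and 568 the order was the opposite. The library labelled epiHybrid scored -0.0197 in family 12 and -0.0172 in family 568, and the library labelled epiRIL scored 0.228 and 0.217 in these families. The values of both families go against their labels. They were kept as labelled below. The count of calls over all genes, the touch list and the loci whose levels or calls these families move are also given without them, over 34 families; shares by position, class and motif are given over 36 families only. Of the 30 called genes taken up by a fixed rule (the largest changes, the smallest p-values and members of the lists), 29 were also called without both.

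**Figure D1:**
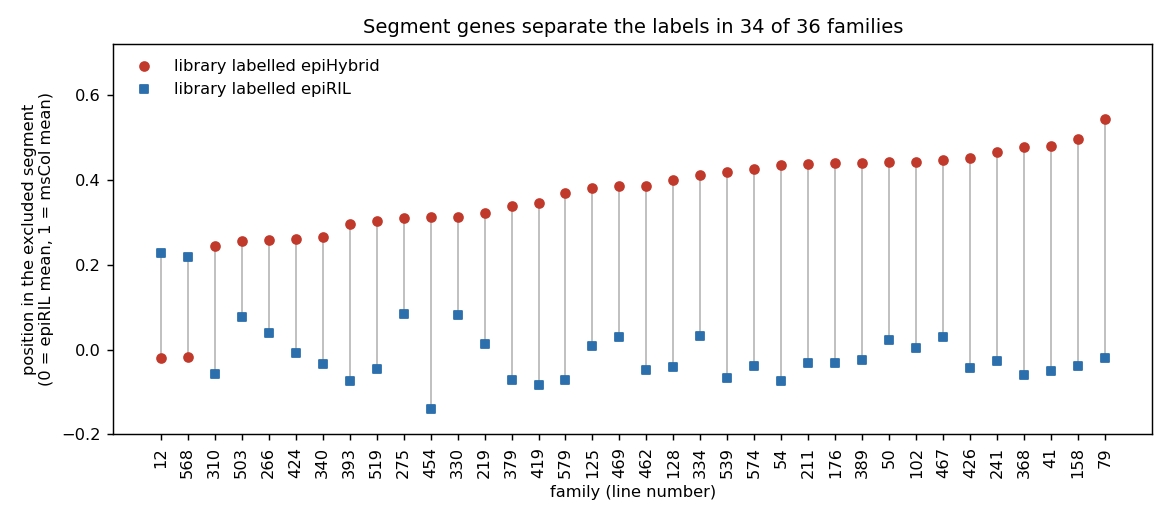
Position of each library between the epiRIL mean (0) and the msCol mean (1) over 63 genes of the excluded segment, by family; circles are libraries labelled epiHybrid, squares libraries labelled epiRIL, and a line joins a family. Circles lie above squares in 34 families and below them in families 12 and 568.

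Across the 18475 genes tested, 112 were called at an adjusted p under 0.05 in edgeR, using its quasi-likelihood test blocked by family (0.606% of the genes tested). Of these, 27 were higher in epiHybrids (0.146%) and 85 were lower (0.46%). Most calls were small: 66 had an absolute log2 fold change under 0.5 and 13 reached 1. The median log2 fold change over all genes tested was -0.0034, as TMM scaling centres the libraries on each other. Without families 12 and 568, 146 genes were called (0.79%), 34 of them higher and 112 lower. The 105 genes called in both fits made up 93.8% of the calls over 36 families and 71.9% of the calls over 34 families, and all 112 log2 fold changes kept their sign. In a fit without the family block 47 genes were called, 41 of them among the 112.

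**Figure D2:**
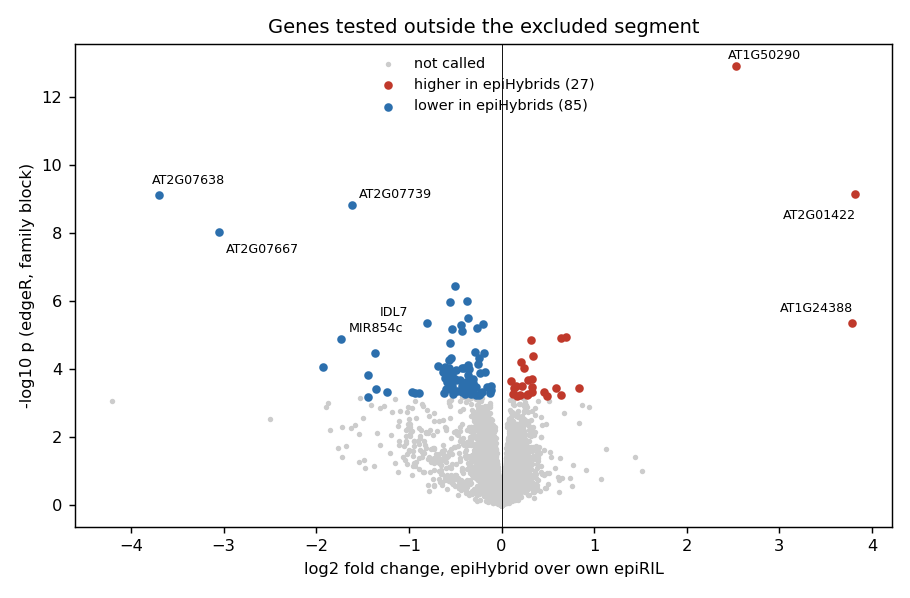
Log2 fold change of epiHybrid over own epiRIL (x axis) against -log10 p of the blocked edgeR test (y axis) for the 18475 genes tested outside the segment; red points are the 27 genes called higher, blue points the 85 called lower and grey points genes not called. A few loci lie beyond 1.5 on the log2 scale on either side, and most called genes lie within 1.

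The largest increases were at 3 loci that both or 1 of the msCol libraries expressed and that nearly every epiRIL left low. AT1G50290 (chr1:18627551-18628452 in TAIR10.1), an uncharacterised protein-coding gene, had 10.3 CPM in the lowest, 58.7 CPM in the median and 117 CPM in the highest library labelled epiHybrid, against 5.5, 7.82 and 67.5 CPM in libraries labelled epiRIL and 107 and 129 CPM in msCol12 and msCol16. The groups overlapped only through families 12 and 568, whose libraries labelled epiHybrid had 10.3 and 11 CPM and whose libraries labelled epiRIL had 51.3 and 67.5 CPM. In the other 34 families epiHybrids had 27.6 to 117 CPM and epiRILs 5.5 to 24.9 CPM. The gene was higher in epiHybrids of 34 of 36 families (log2 fold change 2.53, SE 0.23, edgeR adjusted p = 2.38e-09), and its log2 fold change without both families was 2.71.

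AT2G01422 (chr2:183940-184734), a noncoding RNA gene near the end of the short arm of chromosome 2, had 0, 3.5 and 29.4 CPM in the lowest, median and highest epiHybrid, against 0, 0.0524 and 23.3 CPM in epiRILs and 21.2 and 20.9 CPM in msCol. Most epiRILs were near 0, with 12 of them at 0 counts, but several others lay above the lowest epiHybrids, so the groups overlapped with and without families 12 and 568. In family 469 both libraries were the highest of their group, with 29.4 CPM in the epiHybrid and 23.3 CPM in the epiRIL. epiHybrids were higher in 34 of 36 families (log2 fold change 3.82, SE 0.47, edgeR adjusted p = 5.29e-07), all but families 12 and 568, and the log2 fold change was 4.22 without these 2.

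AT1G24388 (chr1:8648099-8648694), an uncharacterised gene that overlaps AT1G24390, was on in some families only. Its level was 0, 0 and 3.43 CPM in the lowest, median and highest epiHybrid, against 0, 0 and 1.09 CPM in epiRILs, and msCol12 had 0 counts where msCol16 had 164 counts (4.21 CPM). epiHybrids of 8 families exceeded 1 CPM, with fathers at 0 to 0.214 CPM, while family 330 ran the opposite way, with 0.594 CPM in the epiHybrid and 1.09 CPM in the epiRIL. In 16 families both libraries had 0 counts. The log2 fold change was 3.78 (SE 0.64, edgeR adjusted p = 0.000949), but the call was lost with DESeq2 (adjusted p = 0.807). The labels do not say which msCol sibling mothered which family.

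**Figure D3:**
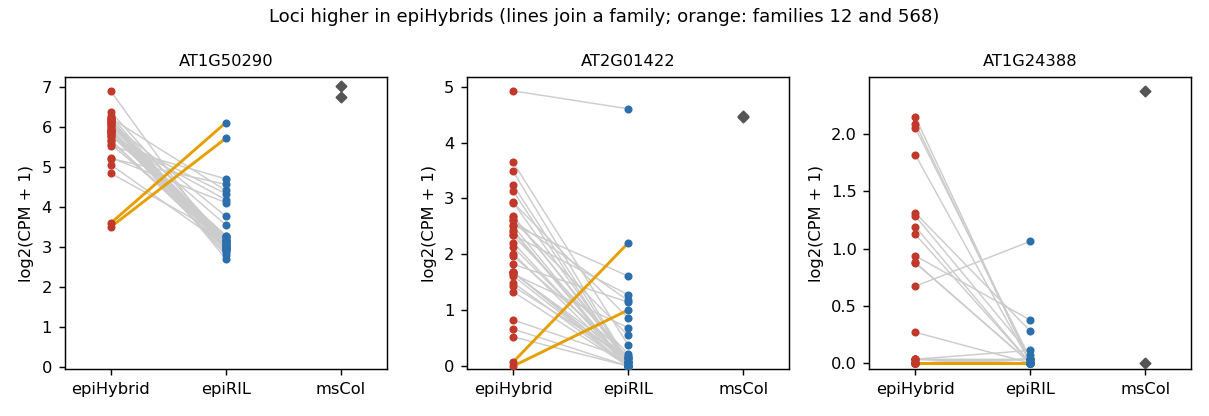
Expression on the log2(CPM + 1) scale of the 3 loci with the largest increase; red points are the 36 libraries labelled epiHybrid, blue points the 36 labelled epiRIL, grey diamonds both msCol libraries, and a line joins a family. Most epiHybrids lie between most epiRILs and msCol for AT1G50290 and AT2G01422, and the lines of families 12 and 568 (orange) run the opposite way for both. For AT1G50290 the epiHybrid of family 79 (117 CPM) lies above msCol12 (107 CPM).

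The other 9 of the 12 largest increases ranged from 0.33 to 0.84 on the log2 scale, and their groups overlapped widely. The germin-like protein gene GER2 (chr5:15692542-15693735) and AT5G39160, a neighbouring gene of the cupin superfamily to which germins belong, were both higher. GER2 had 1.21, 2.48 and 8.06 CPM in the lowest, median and highest epiHybrid, against 0.108, 1.9 and 3.64 CPM in epiRILs (log2 fold change 0.7, SE 0.14, edgeR adjusted p = 0.00223), and 31 of 36 families had the higher value in the epiHybrid. Close copies lie nearby: 94.7% of the 31-base words of GER2 and 91.8% of those of AT5G39160 occur elsewhere in the nuclear genome, so reads may have been shared between copies.

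BRC1 (chr3:6383289-6385815), a TCP transcription factor that restrains the outgrowth of axillary buds, had 3.02, 5.73 and 19.4 CPM in epiHybrids, against 1.08, 4.6 and 6.08 CPM in epiRILs. It was higher in 29 of 36 families (log2 fold change 0.33, SE 0.08, edgeR adjusted p = 0.0225), and msCol12 and msCol16 had 6.94 and 9.67 CPM, above the median of either group. The cytochrome P450 gene CYP705A27 (chr1:18719378-18721219) had 0.922, 1.79 and 2.97 CPM in epiHybrids, against 0.738, 1.44 and 2.03 CPM in epiRILs (log2 fold change 0.34, adjusted p = 0.0064 in edgeR). In AT1G23935, annotated as an apoptosis inhibitory protein, AT1G64100, a pentatricopeptide repeat gene, and AT1G30720, a FAD-binding enzyme gene of the berberine family, the log2 fold changes were 0.84, 0.49 and 0.64. AT1G47655, a Dof zinc finger gene, was at 0.46, and neither it nor AT1G30720 was called without families 340 and 368 (adjusted p = 0.0924 and 0.0939 in edgeR). AT1G47655 was not called without families 12 and 568 either (adjusted p = 0.0571 in edgeR).

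The largest decreases were at loci that were silent or nearly so in msCol: apart from AT2G07739, the 12 lowest log2 fold changes among the calls belonged to genes with at most 4 counts in either msCol library. Of the 18475 genes tested, 250 had at most 3 counts in each msCol library. Such genes could pass the expression filter only through epiHybrids or epiRILs, and AT2G07667 and AT1G06967 passed through their fathers alone. AT2G07638 reached 1 CPM among epiHybrids only in families 12 and 568, whose values go against their labels, and had at most 0.587 CPM in the others. AT3G48630 had at most 0.988 CPM in epiHybrids. The direction of the class is therefore partly set by the filter. The class held 12 calls (4.8% of its genes), all lower in epiHybrids, against 0.549% of genes called outside it. Genes within 2 Mb of a centromere had a higher share of calls than genes further out: 13 of 564 (2.3%), of which 12 were lower, against 99 of 17911 (0.553%). This share is not separate from the class above. Of the 13 calls, 8 belonged to it, all lower, out of 117 of its genes within 2 Mb (6.84%). MIR854a, MIR854b and MIR854c, described below, are among these 8 and may share reads with each other. AT2G07638, AT2G07667, AT2G07739 and AT2G07629, also described below, are among the 13. Of their 31-base words, 93.9% to 100% occur in the mitochondrial genome, so their reads are not securely placed near the centromere. Noncoding gene types made up 12 of the 112 calls and 339 of the genes tested, which gives 3.54% called. These 12 include MIR854a, MIR854b and MIR854c, which lie within the excluded interval by position. Differences between these shares were not tested.

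AT4G19240 (chr4:10527800-10529092), an uncharacterised gene of a chromosome arm, was expressed in few families. Fathers of 9 families had 6.39 to 11.2 CPM and the other 27 fathers had at most 0.356 CPM. All 9 epiHybrids of the expressing fathers were below their own father, at 0.859 to 7.69 CPM, and no other epiHybrid exceeded 0.0907 CPM. Both msCol libraries had 0 counts. The log2 fold change was -1.23 (SE 0.29, adjusted p = 0.0413 in edgeR).

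AT1G46696 (chr1:17261860-17264183), a gene of unknown function, was expressed by 9 fathers at 1.96 to 3.29 CPM, and their 9 epiHybrids had 0.231 to 1.7 CPM. The other 27 epiHybrids had 0 counts, as did both msCol libraries. Its log2 fold change was -1.44 (SE 0.28, adjusted p = 0.0174 in edgeR), and the epiHybrid was lower in 11 families and higher in 0, the other 25 families being at 0 in both libraries. AT1G47265 lay close to it on chromosome 1, with 9 fathers at 4.39 to 6.94 CPM and their epiHybrids at 1.52 to 4.13 CPM. It was taken up after its values were seen.

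AT3G30820 (chr3:12529843-12531235), annotated as a retrotransposon ORF-1 protein, was expressed by 12 fathers at 2.68 to 8.12 CPM, and their epiHybrids had 0.943 to 5.95 CPM, each below its own father. AT3G33528 (chr3:14082640-14084346), next to the centromere of chromosome 3, was expressed by 17 fathers at 1.79 to 9.69 CPM, and 14 of their epiHybrids were lower. Families 12 and 568 were among the exceptions, and the log2 fold change of AT3G33528 was -0.93 over 36 families and -1.14 without these 2. The noncoding AT1G06967 was expressed in 6 families only, all lower in the epiHybrid, and AT2G05635, annotated as a DNA repair helicase of the RAD3 subfamily, reached 1 CPM in 8 fathers, whose epiHybrids were all lower.

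MIR854a, MIR854b and MIR854c were counted outside the excluded interval by their locus numbers, although they lie within it by position on chromosome 5. That interval is wider than the Ler DNA, so this position does not place them in Ler DNA. Of 11 tested loci placed that way 3 were called, and these were the 3. MIR854e, which has the same mature sequence, was tested and not called (log2 fold change -1.53, SE 0.36, edgeR adjusted p = 0.054), and MIR854d was not among the genes tested. miR854 is a microRNA encoded within Athila retrotransposons near the centromere. The mature sequence of each locus, read from TAIR10.1 with bases 2 to 8 (the seed) in capitals, is shown because it is the same in all of them:
MIR854a (chr5:11847721-11847741, plus strand): gATGAGGAtagggaggaggag
MIR854b (chr5:11324568-11324588, minus strand): gATGAGGAtagggaggaggag
MIR854c (chr5:11838098-11838118, plus strand): gATGAGGAtagggaggaggag
The annotated precursors are also close copies, with 98.4%, 100% and 71.2% of the 31-base words of MIR854a, MIR854b and MIR854c found elsewhere in the nuclear genome, so reads may have been shared among these copies and other repeats.

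MIR854c was expressed by 9 fathers at 3.24 to 15.7 CPM, and their epiHybrids had 1.01 to 6.46 CPM, each below its own father, while both msCol libraries had 0 counts. These were families 219, 241, 266, 330, 334, 454, 462, 467 and 469. The last of them had the highest father, with 2.05 CPM in the epiHybrid and 15.7 CPM in the epiRIL. MIR854a and MIR854b reached 1 CPM in the fathers of the same 9 families and of family 158, and the epiHybrid was below its father in 10 of these 10 families for MIR854a and in 9 of them for MIR854b. Log2 fold changes in edgeR were -1.92 (SE 0.39, adjusted p = 0.0121) for MIR854a, -1.37 (SE 0.26, adjusted p = 0.00545) for MIR854b and -1.73 (SE 0.29, adjusted p = 0.00246) for MIR854c. The counts are of RNA-seq reads that fall on the annotated precursor, and the mature microRNA itself was not measured.

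These decreases of genes expressed in few families depended on the model. For MIR854a, MIR854b, MIR854c, AT1G06967, AT1G46696, AT2G05635, AT4G19240, AT3G30820 and AT3G33528, DESeq2 with the same family block gave adjusted p-values of 0.409 to 0.991, and edgeR without the block gave 0.395 to 0.812. All 9 kept the sign of the log2 fold change.

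A separate set of decreases was at genes annotated in a stretch of chromosome 2 near the centromere. This stretch is a nuclear copy of mitochondrial DNA, so the reads counted there need not come from it. AT2G07638 (chr2:3377163-3378213) had 0, 0 and 1.85 CPM in the lowest, median and highest library labelled epiHybrid, against 0.191, 1.44 and 4.62 CPM in libraries labelled epiRIL, and 0 counts in both msCol libraries. The library labelled epiHybrid had 0 counts in 22 families, and no library labelled epiRIL did. Without families 12 and 568 the groups did not overlap, with epiHybrids at 0 to 0.587 CPM and epiRILs at 0.607 to 4.62 CPM. Over these 34 families the gene could pass the expression filter only through its fathers. The log2 fold change was -3.7 (SE 0.46, adjusted p = 5.6e-07 in edgeR), and -4.14 without both families.

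AT2G07667 (chr2:3364296-3366661) had 0, 0 and 0.736 CPM in epiHybrids, against 0.0459, 0.447 and 1.73 CPM in epiRILs, and 0 counts in msCol (log2 fold change -3.05, SE 0.42, edgeR adjusted p = 4.04e-06). AT2G07739 (chr2:3495511-3496398), annotated as a Ycf1 protein, had 0.025, 0.302 and 1.98 CPM in epiHybrids, against 0.454, 0.967 and 4.49 CPM in epiRILs, and 0.404 and 0.154 CPM in msCol12 and msCol16 (log2 fold change -1.62, SE 0.21, edgeR adjusted p = 8.91e-07). Both were higher in the library labelled epiHybrid of families 12 and 568. Without these families the log2 fold change was -3.62 for AT2G07667, with at most 0.32 CPM in epiHybrids, and -1.81 for AT2G07739, with at most 0.782 CPM. At these levels both genes could pass the expression filter only through their fathers. Unlike at the loci above, reads were present in every father, although only 3 fathers reached 1 CPM for AT2G07667, and 24 epiHybrids had 0 counts of that gene.

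Their sequence was compared with the organelle genomes by 31-base words. In AT2G07638, AT2G07667 and AT2G07739, 93.9%, 100% and 100% of the words occur in the mitochondrial genome, so their reads could have come from either copy, and the nuclear and mitochondrial copies cannot be told apart in gene counts. The study used msCol as the mother throughout so that the maternal cytoplasm would not differ between crosses. A part of the cytoplasm in these counts was not tested. AT2G07629, which lies in the same stretch (chr2:3312873-3313502) with 100% of its words shared, was higher in epiHybrids. It had 0.354, 0.738 and 1.59 CPM in epiHybrids, against 0.15, 0.499 and 2.06 CPM in epiRILs (log2 fold change 0.64, SE 0.13, edgeR adjusted p = 0.00227). Of 13 tested genes with at least 50% of their words in the mitochondrial genome, 3 were called lower, 1 was called higher and the other 9 had log2 fold changes of -1.2 to 0.28. All 285 genes of the organelle genomes were listed at 0 counts throughout, and transcripts of the mitochondrial genome itself were not analysed here.

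**Figure D4:**
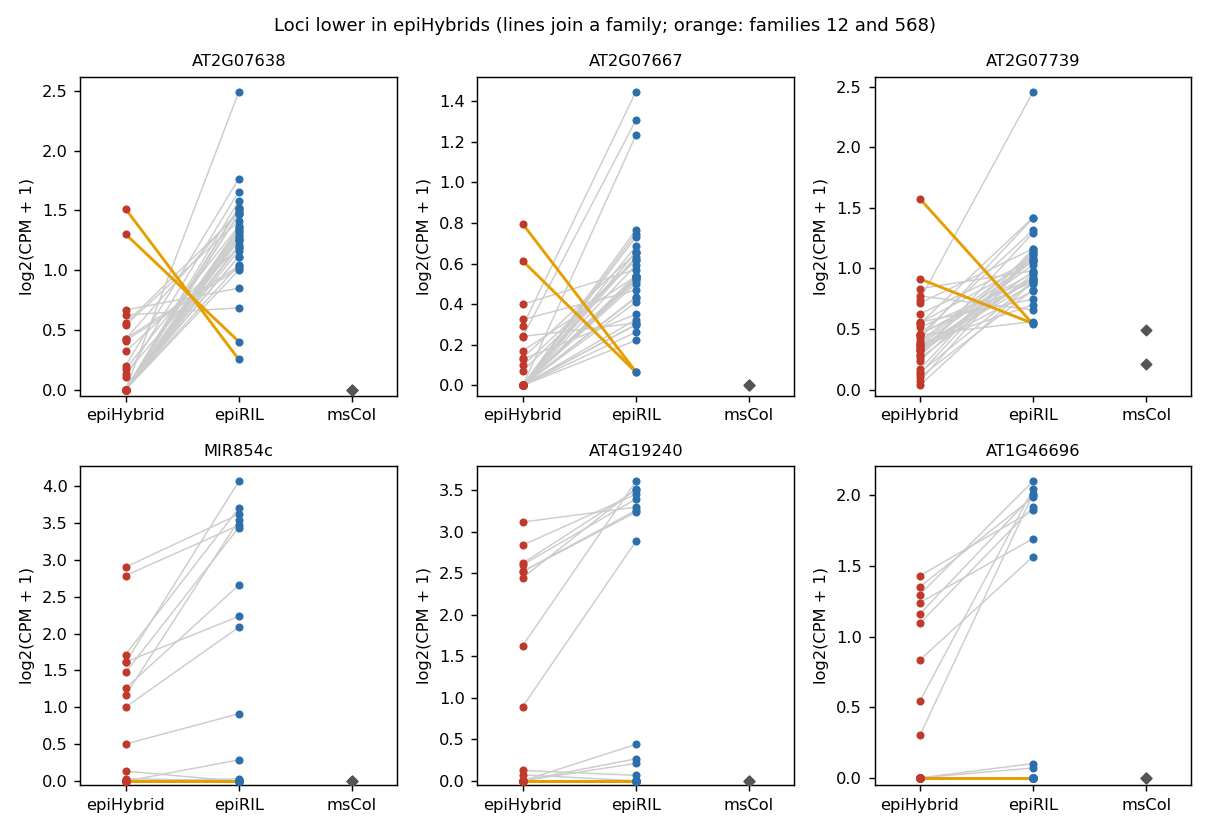
Expression on the log2(CPM + 1) scale of 6 loci that were lower in epiHybrids; red points are the 36 libraries labelled epiHybrid, blue points the 36 labelled epiRIL, grey diamonds both msCol libraries, and a line joins a family (orange for families 12 and 568). In the upper row every epiRIL had reads of the locus and most epiHybrids lay below their father; in the lower row 9 families expressed the locus at 1 CPM or more in the father, with their epiHybrids at lower levels.

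The most numerous group of decreases was that of rapid touch and wound response genes. These are transcription factors, calcium sensors and signalling genes whose transcripts accumulate within minutes of touch, wounding, cold or elicitor and decline again. Of 48 genes listed, 46 were tested and 13 fell in epiHybrids, 0 rose and 33 were not called, beside a background of 0.46% of genes called lower. The median log2 fold change of the list was -0.3, against -0.0034 for all genes tested, and all 46 values were below 0. The list had been drawn up with earlier results of these data known. The same number of members, 13, was called lower without families 12 and 568. In bulk rosettes, fewer responding cells and less RNA per cell cannot be told apart.

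The strongest decrease of the list was that of IDL7 (AT3G10930, chr3:3420081-3420932), a small peptide gene related to IDA that is induced by stress. It had 0.48, 1.54 and 5.22 CPM in the lowest, median and highest epiHybrid, against 0.681, 3.09 and 11.3 CPM in epiRILs. The groups overlapped over most of their range, but the epiHybrid was the lower one in 29 of 36 families (log2 fold change -0.8, SE 0.15, edgeR adjusted p = 0.000953). msCol12 had 7.77 CPM and msCol16 had 1.87 CPM.

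CML38 (chr1:28766750-28768138), a calmodulin-like calcium sensor, had 0.859, 4.2 and 14.2 CPM in epiHybrids, against 1.03, 6.45 and 21.1 CPM in epiRILs (log2 fold change -0.61, SE 0.14, edgeR adjusted p = 0.0122). BAP1 (chr3:22650159-22651636), a C2-domain protein that restrains cell death, had 1, 3.38 and 6.56 CPM in epiHybrids, against 1.56, 4.59 and 15.7 CPM in epiRILs (log2 fold change -0.49, SE 0.11, edgeR adjusted p = 0.0134). ZAT10 (STZ, chr1:9648021-9649323), a zinc finger repressor of stress responses, had 8.64, 33.1 and 86 CPM in epiHybrids, against 10.8, 52.2 and 144 CPM in epiRILs (log2 fold change -0.57, SE 0.13, edgeR adjusted p = 0.0134). Fathers exceeded their epiHybrid in 27 families for CML38, 29 for BAP1 and 28 for ZAT10. In all 3 genes the highest library was an epiRIL and the groups overlapped.

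The other 9 members that fell were transcription factors and regulators of the same response. They were the zinc finger gene ZAT12 (-0.63), the ethylene response factor genes ORA47 (-0.61), ERF6 (-0.5) and ERF5 (-0.43), WRKY40 (-0.59), the cold-response factor genes CBF1 (-0.55) and CBF2 (-0.53), the zinc finger gene SZF1 (-0.33) and AT4G29780 (-0.57), annotated as a nuclease; values are log2 fold changes. Among members not called, taken up after their values were seen, were ERF109 at -0.64 (adjusted p = 0.403 in edgeR) and the classical touch genes TCH2, TCH3 and TCH4 at -0.23, -0.16 and -0.3. The smallest differences were those of ERF2 and the kinase gene MPK3, both at -0.01.

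Families varied widely. The mean difference of the list (epiHybrid minus own epiRIL on the log2(CPM + 1) scale, over the 46 genes) was below 0 in 27 of 36 families. It had a median of -0.3 and ranged from -1.44 in family 454 to 0.62 in family 467. Summed over the list, epiHybrids had 653 to 1560 CPM (median 1008) and epiRILs 505 to 2603 CPM (median 1104), so the highest epiRILs lay above every epiHybrid while the lowest lay below them. Both msCol libraries stood apart from each other, at 2203 CPM in msCol12 and 911 CPM in msCol16, and 44 of the 46 genes were higher in msCol12. Without the family block 3 members were called. The hour of harvest and handling are not in the labels, and their part in the result was not tested.

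**Figure D5:**
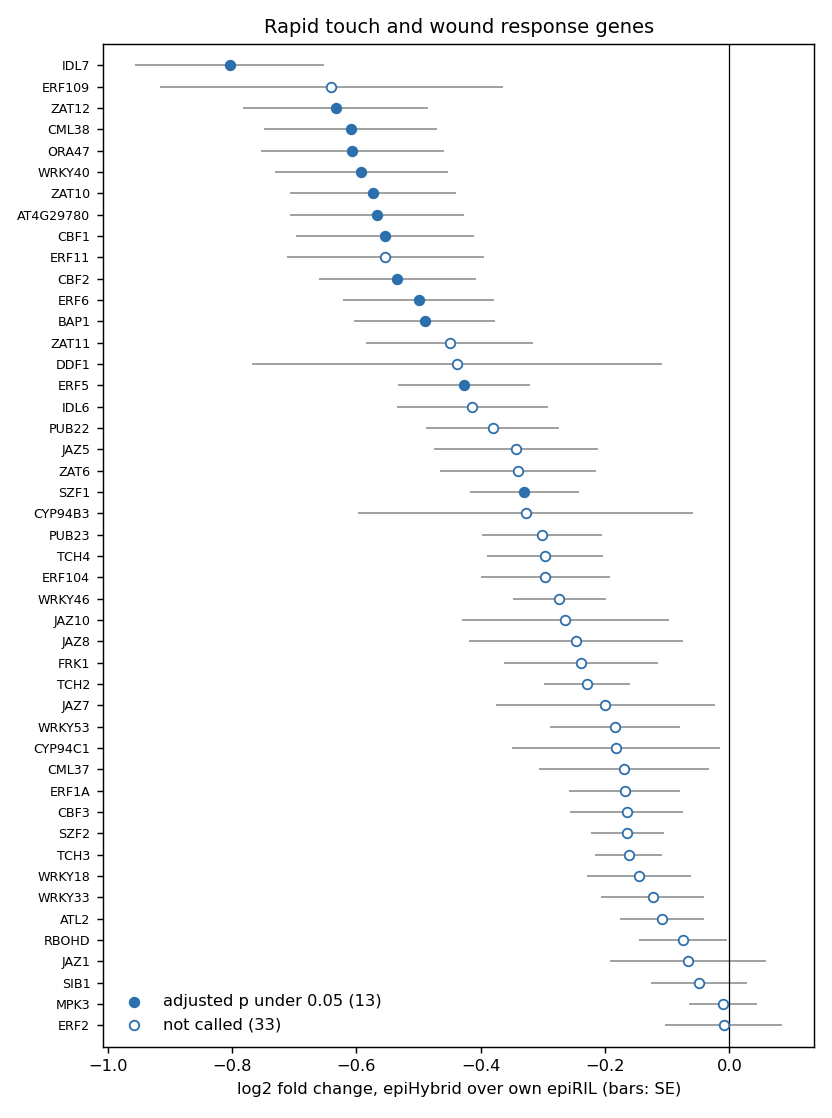
Log2 fold change of epiHybrid over own epiRIL for the 46 rapid touch and wound response genes tested, from the blocked edgeR test over 36 families; bars are SE, filled circles the 13 genes with an adjusted p under 0.05 and open circles the 33 not called. All points lie left of 0, from -0.8 to -0.01.

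The promoters of the genes that fell were searched for motifs on both strands in the 250 bases before the annotated start of each gene. CGCGTT, the core of the rapid stress response element that calmodulin-binding CAMTA factors recognise, was in 10 of the 85 genes called lower (11.8%), 0 of the 27 called higher and 504 of the 18474 promoters read (2.73%). TTGACT, a W box that WRKY factors recognise, was in 30 of the 85 genes called lower (35.3%), 2 of the 27 called higher (7.41%) and 18.6% of all promoters. It was in 3 of the 13 called members of the touch list (23.1%) and in 27 of the 72 other genes called lower (37.5%). The related TTGACC was in 15.3% of genes called lower, 18.5% of those called higher and 12.1% of all. For the G box CACGTG the shares were 12.9%, 0 and 7.48%, for the evening element AAAATATCT 4.71%, 3.7% and 2.5%, for the GCC box GCCGCC 2.35%, 0 and 2%, and for the CBF-bound CCGAC 18.8%, 18.5% and 13.1%. Only 1 of the 10 promoters with CGCGTT belonged to the called members of the touch list, that of CBF2. A match is a run of letters and not a measured site, and shares of motifs were not tested.

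Promoter windows are shown for 3 of the genes called lower that hold CGCGTT, to let the motif be seen in place. The sequences are those of TAIR10.1, 5′ to 3′ on the strand of the gene, and capitals mark CGCGTT or its reverse complement AACGCG:
AT1G66500 (chr1:24812662-24812911, minus strand): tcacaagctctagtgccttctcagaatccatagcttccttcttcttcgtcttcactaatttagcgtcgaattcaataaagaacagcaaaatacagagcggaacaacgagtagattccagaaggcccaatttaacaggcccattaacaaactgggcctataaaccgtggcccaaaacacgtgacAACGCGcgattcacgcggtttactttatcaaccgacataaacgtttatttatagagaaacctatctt
PHI-1 (chr1:12851733-12851982, plus strand): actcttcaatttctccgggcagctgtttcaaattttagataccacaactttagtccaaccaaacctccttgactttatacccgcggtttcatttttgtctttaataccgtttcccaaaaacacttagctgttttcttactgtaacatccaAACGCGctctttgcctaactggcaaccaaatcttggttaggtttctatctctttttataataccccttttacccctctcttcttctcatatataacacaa
CBF2 (chr4:13016236-13016485, minus strand): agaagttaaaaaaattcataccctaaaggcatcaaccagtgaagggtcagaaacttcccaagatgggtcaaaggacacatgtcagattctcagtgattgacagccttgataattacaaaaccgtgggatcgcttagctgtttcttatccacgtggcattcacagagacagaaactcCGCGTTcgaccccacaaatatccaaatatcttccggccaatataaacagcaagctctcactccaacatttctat
The log2 fold changes of these genes were -0.36 for AT1G66500, annotated as a subunit of a pre-mRNA cleavage complex, -0.57 for the phosphate-responsive gene PHI-1 and -0.53 for CBF2.

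The noncoding AT1G34844 (chr1:12751156-12752905), which overlaps AT1G34842, was among the 6 smallest p-values. It had 3.46, 6.2 and 9.73 CPM in epiHybrids, against 5.46, 8.88 and 12 CPM in epiRILs, and was lower in 32 of 36 families (log2 fold change -0.51, SE 0.08, edgeR adjusted p = 0.0001). Both msCol libraries differed, with 1.94 CPM in msCol12, below every epiHybrid, and 9.16 CPM in msCol16.

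Among the flavonoid and anthocyanin genes, 15 of 17 were tested, 1 fell, 0 rose and 14 were not called, beside 0.46% of all genes called lower. The called gene was CHS (TT4, AT5G13930, chr5:4488476-4490264), which encodes chalcone synthase, the entry enzyme of the pathway. It had 26.1, 60.8 and 198 CPM in epiHybrids, against 42.3, 93.9 and 174 CPM in epiRILs, and was lower in 27 of 36 families (log2 fold change -0.42, SE 0.1, edgeR adjusted p = 0.0126). An epiHybrid was the highest library, and the groups overlapped nearly throughout. The median of the list was -0.33, and 13 of the 15 values were below 0. The late anthocyanin genes DFR at -0.6 (SE 0.2) and LDOX at -0.57 (SE 0.16) were taken up after their values were seen and were not called, with adjusted p-values of 0.193 and 0.0672 in edgeR. Without the block CHS was not called either (adjusted p = 0.394).

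The remaining 17 pathway lists held no call by edgeR over 36 families. In the 17 DNA methylation and demethylation genes and the 21 genes of RNA-directed DNA methylation, 0 members had an unadjusted p under 0.05, and the medians were -0.04 and -0.02. Values ranged from -0.17 to 0.09 in the first list and from -0.14 to 0.19 in the other. Of the 10 genes known to respond to loss of DNA methylation 8 were tested, again with 0 at an unadjusted p under 0.05. QQS, a starch regulator with natural epialleles, had 2.4, 7.52 and 48.5 CPM in epiHybrids, against 0.628, 7.8 and 59.8 CPM in epiRILs (log2 fold change -0.11, SE 0.18). The epiHybrid was lower in 20 families and higher in 16. Read by family after its values were seen, every father with 1443 to 2391 counts exceeded its epiHybrid, except in family 12, whose values go against its labels. Below that level, families went either way, so the pooled log2 fold change does not describe each family. The immune receptor gene SNC1 had 92, 228 and 370 CPM in epiHybrids, against 107, 237 and 299 CPM in epiRILs (log2 fold change -0.07, SE 0.07).

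Growth and photosynthesis genes were likewise not called. The 40 photosystem and Rubisco genes had a median of -0.02 and values of -0.1 to 0.12, with 1 member at an unadjusted p under 0.05. The 25 cell division genes had a median of -0.02, and 0 members passed an unadjusted p of 0.05. Among 19 auxin, PIF and expansin genes the median was 0.01 and 3 had an unadjusted p under 0.05. Of these, the expansin gene EXPA8 had 75.4, 112 and 349 CPM in epiHybrids, against 66, 103 and 176 CPM in epiRILs (log2 fold change 0.23, SE 0.08, edgeR adjusted p = 0.197).

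Defence and stress lists other than the touch list held 0 calls, with medians of -0.11 to -0.06 and more values below 0 than above. The 18 salicylic acid defence genes had a median of -0.1, 15 values below 0, with 3 members at an unadjusted p under 0.05. The 17 immune receptor genes and partners had -0.07 (13 below 0) with 1 such member, the receptor kinase gene SOBIR1 at -0.19 (SE 0.05, edgeR adjusted p = 0.0868). The 16 jasmonate genes had -0.08 (11 below 0) with 1 such member, and the 20 abscisic acid, drought and cold genes -0.06 (14 below 0) with 1. The 10 heat shock and protein folding genes had -0.11 (9 below 0) with 3, and the 16 iron homeostasis genes -0.07 (12 below 0) with 2. Among the 15 indole glucosinolate and camalexin genes the median was -0.06, 13 values were below 0 and 4 members had an unadjusted p under 0.05.

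The clock, metabolic and flowering lists complete the set. The 27 circadian clock genes had a median of -0.04 with 5 members at an unadjusted p under 0.05. TOC1, an evening gene of the clock, had 29.2, 43.1 and 92 CPM in epiHybrids, against 28.5, 37.6 and 72 CPM in epiRILs (log2 fold change 0.15, SE 0.05, edgeR adjusted p = 0.204). Without families 12 and 568 its adjusted p was 0.035. The 13 dark and sugar starvation genes had a median of 0.04, with 3 members at an unadjusted p under 0.05 and 2 of 13 values below 0. In the 19 aliphatic glucosinolate genes the median was 0.05, 18 of 19 values were above 0 and 5 had an unadjusted p under 0.05. The value below 0 was that of FMO GS-OX2, which oxidises the sulphur of the side chain, at -0.27 (SE 0.08, edgeR adjusted p = 0.111), lower in 28 of 36 families. It was called lower without families 12 and 568 (edgeR adjusted p = 0.0414). IPMI2 (AT2G43100), which acts in the elongation of methionine side chains, was at 0.24 (SE 0.07, edgeR adjusted p = 0.101). It was called without the block and by DESeq2 (adjusted p = 0.0346 and 0.048), and also at a smaller log2 fold change of 0.16 without families 340 and 368 (edgeR adjusted p = 0.0357). The 14 floral transition genes had a median of 0.03 with 1 such member.

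The calls were spread over all 5 chromosomes. Chromosome 1 had 46 of 5121 genes called (0.898%), chromosome 2 had 14 of 2936 (0.477%), chromosome 3 had 23 of 3852 (0.597%), chromosome 4 had 14 of 2964 (0.472%) and the tested part of chromosome 5 had 15 of 3602 (0.416%). Next to the excluded segment, 2 of 677 genes in the 3 Mb before AT5G17000 and 3 of 418 genes in the 3 Mb after AT5G36500 were called. All 3 genes called after AT5G36500 were higher in epiHybrids, and GER2 and AT5G39160 were among them. Calls were more frequent among weakly expressed genes, with 1.3% of genes under a mean of 1 CPM, 0.904% of those at 1 to 10 CPM and 0.378% of those at 10 CPM or more.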

How the data were processed

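RNA-seq was done on rosettes of 36 epiHybrids, 36 epiRILs and 2 msCol lines, 1 library each. The authors trimmed reads with Trim Galore, mapped them to TAIR10 with TopHat2 and counted them per gene with featureCounts, and deposited raw counts; versions are not given in the sources used here. Strand handling is not given either, so overlapping genes are uncertain, and 28 of the 112 genes called overlap another. No library was identical to another.

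The filter kept genes that reached 1 CPM in 2 or more of the 74 libraries (19383 of 32833, holding 99.9% of the counts). TMM factors were computed over all libraries. The comparison of epiHybrid and epiRIL used edgeR 4.0.16 (R 4.3.3), its quasi-likelihood test blocked by family, two-sided, with Benjamini-Hochberg adjustment over all genes kept and a threshold of 0.05. A log2 fold change is epiHybrid over epiRIL, and CPM values are TMM-normalised. msCol libraries entered no test.

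Pairing comes from parentage. It was checked on deviations from the group means over 17242 genes: an epiHybrid correlated with its own father at a median of 0.42 (-0.34 to 0.83), over 0.1 in 30 of 36 families, against a median of -0.01 with other fathers. The own father was the best match for 17 of the 36 epiHybrids. The segment score is the median, over 63 genes with an absolute log2 fold change of at least 1 between epiRIL and msCol, of the position of log2(CPM + 1).

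Named genes were the 12 highest and 12 lowest log2 fold changes among calls, the 6 smallest p-values, and from each list up to 4 called members or, where none was called, the 1 or 2 with the smallest p. Members and lists were chosen with earlier results of these data known. Families had been picked by leaf area heterosis, and those classes were not used here.

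Positions, biotypes, promoters (250 bases before the start) and mature microRNAs were read from TAIR10.1 of RefSeq, which held 32548 of the listed loci. Centromere midpoints are approximate. Repeated sequence was measured as the share of 31-base words found in the organelle genomes or elsewhere in the nuclear genome. Alternatives used RLE or upper-quartile factors, no filter or 1 CPM in 36 libraries, DESeq2 1.42.0, limma-voom (limma 3.58.1), no block, the length slope of each library as a covariate, or fewer families. Scripts were tested on simulated data.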

Additional observations from a re-analysis of the deposited data

How the results depend on the processing

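Counts of calls depended on the model more than on scaling. In place of 112 calls (27 higher, 85 lower in epiHybrids), edgeR without the family block, in which pairing is ignored, gave 47, with 27 lower. DESeq2 with the block gave 169, with 49 higher. limma-voom gave 267, with 41 higher and 226 lower, and the block with the length slope of each library as a covariate gave 210, with 54 higher and 156 lower. All 112 calls were among those of limma-voom, 110 among those with the length slope and 102 among those of DESeq2. RLE and upper-quartile factors gave 113 and 106 calls, no filter 101 and the stricter filter 87. Of 30 named genes called, 19 were not called without the block, 10 not by DESeq2 and 3 not without families 340 and 368. The length slope, a measure of how a library's counts lean to long or short genes, differed by -0.011 on average between epiHybrids and their fathers (permutation p = 0.669) and by 0.0082 without families 340, 368 and 310 (permutation p = 0.699), so its sign turned; neither passed the test. With 5 Mb in place of 2 Mb, 1.1% of genes near a centromere were called, against 2.3%. The root marker NRT2:1 (AT1G08090), at 0.03 and not called, was at -0.023 without families 340, 368 and 310 and at -0.00077 without families 12 and 568. Placing genes by position in place of locus number, an alternative chosen after seeing the data, removed MIR854a, MIR854b and MIR854c and left 109 calls of 18464 genes. Each line was 1 pooled library, 1 count was worth about 0.0245 CPM, and levels of a few counts cannot show small differences.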

Other observations

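The genes below were called in the blocked edgeR test over 36 families and were taken up 1 by 1 after their values were seen. They belong to no list, so no count or share of a gene group follows from them. ERF13, an ethylene response factor gene, was at a log2 fold change of -0.69 and lower in epiHybrids of 30 of 36 families. PBP1, which encodes a calcium-binding protein, was at -0.56 and lower in 31 families. AT1G72910, which encodes a TIR-domain protein, was at -0.37 and lower in 31 families, whereas the 17 tested members of the immune receptor list held 0 calls. ACS6, which encodes an enzyme of ethylene synthesis, was at -0.36, and EBF1, an F-box gene of the ethylene pathway, was higher at 0.13. The beta-amylase genes BAM5, BAM2 and BMY2 were at -0.42, -0.11 and -0.12, and the starch synthase gene GBSS1 was at -0.28. GPT2, a glucose-6-phosphate transporter gene, was at -0.6 and lower in 23 families, but was not called without families 12 and 568 (edgeR adjusted p = 0.0726). Of the 85 genes called lower, msCol12 lay above the epiRIL mean in 47 and msCol16 in 6.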
